A study of Mus musculus with 24 samples.

Results

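The 10 genes described here are a set of RAS-MAPK feedback genes: the phosphatase genes Dusp4, Dusp5 and Dusp6, the Sprouty genes Spry2 and Spry4, the Sprouty-related genes Spred1, Spred2 and Spred3, and the ETS factor genes Etv4 and Etv5. They were taken by symbol, by a rule that names the genes and uses no measured value. The names themselves, however, were chosen with earlier results of these data known. These genes are 10 of 55401 in each of 3 count tables. Each symbol matched 1 gene, and all 10 passed the filter on low counts in all 3 tables.

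Growth signals that reach RAS are passed on by a chain of kinases that ends in ERK, and ERK in turn raises the transcription of genes that restrain the chain. DUSP proteins remove phosphate from ERK, Sprouty proteins act between receptors and the kinases, and SPRED proteins bring the RAS inhibitor neurofibromin to the membrane. Etv4 and Etv5 encode transcription factors whose genes are raised by the same signal. RNA of these genes is often read as a record of ERK activity, also in pancreatic ductal adenocarcinoma (PDAC).

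The series measured messenger RNA in mouse PDAC cell lines grown on collagen-coated plates, in 24 libraries and 11 groups. KPsh cells carry a hairpin against Trp53, the p53 gene, that doxycycline switches on, so that cells on the drug have little p53 and cells taken off it regain it. For 10 days 1 group stayed on doxycycline at 1 µg/ml and 1 group was grown without it (n = 3 per group). KPnull cells have no p53 of their own and hold a doxycycline-inducible vector, and all their groups are taken to have received doxycycline at 1 µg/ml for 48 hours. That vector was empty (vector) or carried wild-type p53 (p53WT) or p53 mutant in transactivation domain 1 (TAD1m), in domain 2 (TAD2m) or in both (TAD12m), with n = 2 each. In the last set all KPsh cells had been edited with a guide against Pcyt2, which encodes an enzyme of phosphatidylethanolamine synthesis. These sgPcyt2 cells, some of which also received a Pcyt2 cDNA that the guide cannot cut, spent 6 days on or off doxycycline (n = 2 each). The 24 libraries include no KPsh cells with neither the guide nor the cDNA at 6 days, and the labels do not say whether a line is 1 clone. In the KPsh and sgPcyt2 cells doxycycline and p53 change together, so that their parts cannot be told apart.

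KPsh libraries held 9393966 to 12983420 counts each, KPnull libraries 13657592 to 19431250 and sgPcyt2 libraries 13801514 to 17127760. The labels do not say that replicates were separate cultures, so p-values reflect only how far these libraries spread, and that spread may be technical. Trp53 stood at 21.1 ± 0.721 CPM, counts scaled to the TMM-adjusted library size, in KPsh cells on doxycycline and 258 ± 5.85 off it (SD, n = 3). Among KPnull groups it was 5.33 ± 1.12 CPM with vector and 527 ± 3.80 with TAD2m, the lowest of the 4 p53 forms (SD, n = 2). Of 5 epithelial markers, Krt8, Krt18, Krt19 and Cdh1 were present and Epcam stayed near 1 CPM or below. The summed epithelial level was higher wherever wild-type p53 or TAD2m was, at 11322 to 11931 against 6581 to 6843 CPM in the KPsh set. It was 7322 to 7806 against 5321 to 5729 CPM with p53WT and vector, and its part in the results below was not tested. In these 2 comparisons Krt8, Krt18 and Krt19 carried the sum and Cdh1 went the other way, with 475 ± 13.8 CPM off against 522 ± 6.09 on doxycycline in KPsh cells (SD, n = 3) and 1009 ± 34.6 with p53WT against 1280.0 ± 11.1 with vector (SD, n = 2). Summed markers reached 9.38 CPM for fibroblasts (5 genes, mostly Pdgfra), 21.4 CPM for immune cells (5 genes, nearly all Csf1r) and 8.27 CPM for endothelial cells (5 genes, mostly Cdh5). Acinar and endocrine markers were at 0 in every library. Mitochondrial transcripts took 3.31% to 3.51% of counts in sgPcyt2 cells off doxycycline and 1.86% to 1.98% on it, and 3.33% to 3.34% against 1.96% to 2.00% with the cDNA. In KPnull cells their share was 3.01% to 3.09% with p53WT and TAD2m and 2.16% to 2.51% in the other 3 groups, in KPsh cells it was 1.95% to 2.41% off and 1.80% to 1.98% on doxycycline, and its part was not tested either.

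All 10 genes were counted over the exons of 1 transcript each on the mouse build mm10. Dusp4 (4 exons) lies on chromosome 8 at 34807297 to 34819894, Dusp5 (4 exons) on chromosome 19 at 53529109 to 53542431 and Dusp6 (3 exons) on chromosome 10 at 99263231 to 99267488, all on the plus strand. Spry2 (2 exons) lies on chromosome 14 at 105891947 to 105896819 and Spry4 (2 exons) on chromosome 18 at 38586247 to 38601415, both on the minus strand. Spred1 (7 exons, chromosome 2 at 117121374 to 117182279) and Spred2 (7 exons, chromosome 11 at 19924375 to 20024026) are on the plus strand, and Spred3 (6 exons, chromosome 7 at 29158829 to 29168647) is on the minus strand. Etv4 (13 exons, chromosome 11 at 101769747 to 101785371) and Etv5 (13 exons, chromosome 16 at 22381309 to 22439719) are on the minus strand. Only Dusp5 shares exon bases with another gene, 22.1% of them, with Gm50394 on the opposite strand. Reads on both strands were counted, so reads of that stretch cannot be told apart, and Gm50394 itself stood at no more than 10.5 ± 1.03 CPM (SD, n = 2, sgPcyt2 cells on doxycycline).

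**Figure D1:**
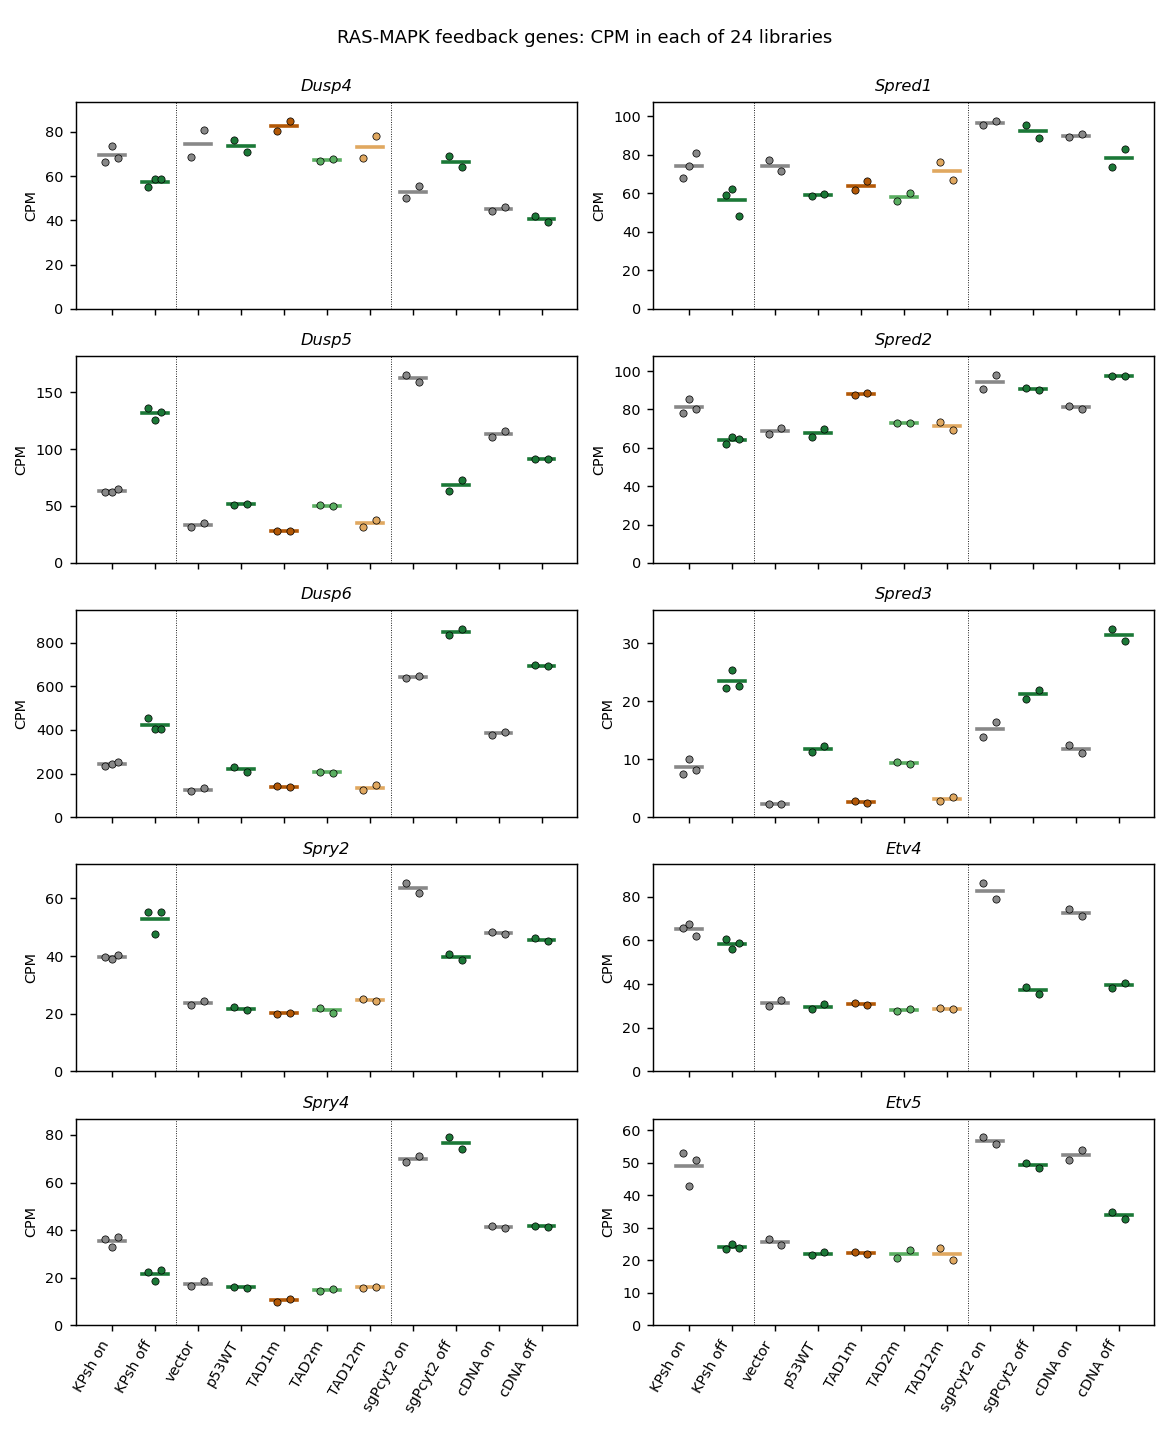
CPM of each feedback gene (vertical axis, from 0) in each of 24 libraries, by group; points are libraries, bars are group means, and dotted lines divide the 3 tables, which were scaled separately. Off doxycycline the KPsh libraries lie above those on it for Spred3, Dusp5, Dusp6 and Spry2 and below them for the other 6 genes, of which Etv4 was not called. In that comparison 64.8% of all genes tested were called, and the share of all genes with libraries apart was not counted.

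Per kilobase of exon, Dusp6 had the highest level of the 10 in all 11 groups, from 45.4 CPM per kilobase with vector to 305 CPM per kilobase in sgPcyt2 cells off doxycycline. Spred3 or Spry4 had the lowest level in every group, Spry4 in KPsh cells off doxycycline at 4.53 CPM per kilobase and Spred3 in the other 10 groups, down to 0.554 CPM per kilobase with vector. The spread between groups of a table was widest for Spred3. Its highest group mean exceeded its lowest 5.25 times among KPnull groups, 2.74 times among KPsh groups and 2.69 times among sgPcyt2 groups. For Etv4 the same ratio was 1.11 among KPnull groups and 2.22 among sgPcyt2 groups. Levels from different tables stand side by side here without a test.

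The first comparison asked what restoring p53 for 10 days did in KPsh cells. Spred3, Dusp5, Dusp6 and Spry2 rose, while Etv5, Spry4, Spred1, Spred2 and Dusp4 fell, so the set split rather than moved as one. With 9 of 10 called by edgeR's quasi-likelihood test at an adjusted p under 0.05, 4 higher and 5 lower, the count stands beside 64.8% of the 13990 genes tested (33.1% higher, 31.7% lower). The median log2 change of the 10 was −0.21, against 0.01 over all genes tested. Fewer cells of a type and less RNA per cell cannot be told apart in such bulk samples.

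Among the phosphatases, Dusp5, a nuclear phosphatase specific for ERK, stood at 62.2, 62.2 and 64.7 CPM on doxycycline and 136, 126 and 132 CPM off it. All libraries off the drug lay above all on it, and the gene rose by 1.06 ± 0.06 (adjusted p = 1.2e-12) on the log2 scale, with the standard error of the fit after the sign ± here and below (n = 3 per group). Gm50394, which overlaps Dusp5, was at 1.28, 1.36 and 0.604 CPM on and 2.35, 2.86 and 4.99 CPM off doxycycline, a small fraction of the Dusp5 values. Dusp6, the cytoplasmic ERK phosphatase, stood at 235, 242 and 251 CPM on and 454, 406 and 404 CPM off. The ranges did not overlap, and Dusp6 rose by 0.80 ± 0.06 (adjusted p = 6.2e-11). Dusp4, a nuclear phosphatase that acts on several MAP kinases, went the other way, from 66.2, 73.7 and 68.3 CPM to 54.8, 58.8 and 58.5 CPM. It fell by 0.27 ± 0.07 (adjusted p = 0.0015), again with the groups apart.

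The Sprouty genes, whose products inhibit receptor signalling to RAS, moved in opposite directions. Spry2 stood at 39.7, 38.9 and 40.5 CPM on doxycycline and 55.3, 47.8 and 55.5 CPM off it, and rose by 0.41 ± 0.08 (adjusted p = 7.2e-05). Spry4 stood at 36.2, 33 and 37.2 CPM on and 22.6, 18.6 and 23.4 CPM off, and fell by 0.72 ± 0.10 (adjusted p = 7.6e-07). For both genes the libraries of the groups did not overlap.

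The SPRED genes were split as well. Spred3 stood at 7.51, 10.02 and 8.16 CPM on doxycycline and 22.3, 25.3 and 22.7 CPM off it. Every library off the drug exceeded every one on it, and the rise of 1.47 ± 0.12 (adjusted p = 4.7e-10) was the largest of the 10. Spred1 went from 68, 74 and 81 CPM to 59.2, 62.3 and 48.4 CPM and fell by 0.39 ± 0.09 (adjusted p = 0.00069). Spred2 went from 78, 85.4 and 80.1 CPM to 61.9, 65.4 and 64.6 CPM and fell by 0.34 ± 0.06 (adjusted p = 8.7e-05).

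The ETS factor genes are outputs of the pathway rather than inhibitors. Etv5 stood at 53, 42.8 and 50.9 CPM on doxycycline and 23.6, 25.2 and 23.9 CPM off it. All libraries off the drug were below all on it, and Etv5 fell by 1.02 ± 0.09 (adjusted p = 1.4e-09). Etv4 stood at 65.8, 67.5 and 61.9 CPM on and 60.5, 56.1 and 58.7 CPM off. These groups were also apart, but the change of −0.15 ± 0.07, adjusted p = 0.052, did not pass, and its 95% interval ran from −0.29 to −0.01. The fit with other size factors (RLE) put it at −0.16 with an adjusted p of 0.043, just past the threshold. It also passed without the first library off or the third on the drug (adjusted p = 0.047 and 0.035).

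The promoter windows of Spred3, Dusp6 and Dusp5 are shown because these genes rose with p53 in both the KPsh and the KPnull cells described next. Sequences are from RefSeq on GRCm38.p6, the same coordinates as mm10, written 5′ to 3′ on the gene's strand. Those of Spred3 (chr7:29168648-29168897, minus strand) and Dusp6 (chr10:99262981-99263230, plus strand) hold the 250 bases before the start, and that of Dusp5 (chr19:53528895-53529123, plus strand) ends 15 bases past the start of the counted transcript. Capitals mark TGAATG, the core of the octamer bound by Capicua, a repressor that ERK signalling inactivates. Only this core was searched for, not the whole octamer. In Dusp5 it reads CATTCA because it lies on the other strand.
Spred3: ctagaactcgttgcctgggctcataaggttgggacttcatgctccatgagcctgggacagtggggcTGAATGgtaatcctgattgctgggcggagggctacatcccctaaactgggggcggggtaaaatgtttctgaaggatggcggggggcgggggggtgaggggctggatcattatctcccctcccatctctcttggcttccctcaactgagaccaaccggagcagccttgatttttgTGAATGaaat
Dusp6: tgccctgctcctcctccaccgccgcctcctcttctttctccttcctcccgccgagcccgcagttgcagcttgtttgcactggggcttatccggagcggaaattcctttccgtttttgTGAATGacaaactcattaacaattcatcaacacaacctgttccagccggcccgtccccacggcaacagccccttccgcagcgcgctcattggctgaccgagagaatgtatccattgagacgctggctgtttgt
Dusp5: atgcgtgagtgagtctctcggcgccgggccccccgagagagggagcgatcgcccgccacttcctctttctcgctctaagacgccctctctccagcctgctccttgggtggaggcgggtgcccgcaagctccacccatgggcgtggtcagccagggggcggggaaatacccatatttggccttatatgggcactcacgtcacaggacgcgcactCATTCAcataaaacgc

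In the RefSeq windows of 300 bases, which reach 50 bases past the start, 7 of the 10 genes had an entry, with 8 windows because Etv5 has 2 starts. Dusp4, Spry4 and Etv4 had none. TGAATG on either strand occurred in 4 of the 8 windows (Spred3, Dusp6, Dusp5 and 1 of Etv5), against 12.7% of 32851 windows of all genes. The ETS core CGGAAG occurred in 3 of the 8 (Dusp6, Spred1 and Spred2), against 16.9%. Neither the AP-1 motif TGANTCA (7.81% of all windows) nor the p53 half-site (8.36%) occurred in any of the 8. Each motif was searched on both strands and counted without regard to overlap with another, and TGAATG was chosen after the letters were seen. A match describes letters only, and its absence says nothing of a factor.

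The KPnull groups addressed which p53 forms change the same genes within 48 hours. Spred3, Dusp6 and Dusp5 were higher and Spred1 was lower with p53WT and with TAD2m than with vector, and no other feedback gene was called in either comparison. With p53WT the 4 of 10 called stand beside 50.6% of 15075 genes tested (25.5% higher, 25.1% lower), and with TAD2m the 4 of 10 beside 49.1% (24.9% higher, 24.2% lower). TAD1m gave another pattern, with Spred2 higher and Spry4, Dusp5, Spred1 and Spry2 lower, 5 of 10 beside 36.4% (19% higher, 17.5% lower). With TAD12m none of the 10 was called by edgeR, against 3.85% of all genes (2% higher, 1.85% lower), with 2 of 10 at an unadjusted p under 0.05 and none by DESeq2. All these comparisons share the vector libraries, so their values stand side by side and are no independent repeats.

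Spred3 stood at 2.25 and 2.23 CPM with vector, 11.2 and 12.3 CPM with p53WT, 9.49 and 9.13 CPM with TAD2m, 2.72 and 2.41 CPM with TAD1m and 2.74 and 3.43 CPM with TAD12m. The p53WT and TAD2m libraries lay well above all others. Against vector the gene was 5.23-fold higher with p53WT (log2 2.39 ± 0.16, adjusted p = 3.6e-09) and 4.15-fold higher with TAD2m (log2 2.05 ± 0.17, adjusted p = 3.9e-08). The log2 change was 0.20 ± 0.21, adjusted p = 0.52, with TAD1m and 0.46 ± 0.19, adjusted p = 0.3, with TAD12m, neither past the threshold. In the order vector, TAD1m, TAD12m, TAD2m and p53WT, only TAD12m and TAD2m differed as neighbours (TAD2m against TAD12m, log2 1.59 ± 0.16, adjusted p = 3.5e-07).

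Dusp6 stood at 121 and 133 CPM with vector, 230.2 and 208 CPM with p53WT, 207 and 203 CPM with TAD2m, 142 and 137 CPM with TAD1m and 125 and 145 CPM with TAD12m. The same pair of forms lay above the rest. It rose by 0.79 ± 0.07 (adjusted p = 2.0e-07) with p53WT and by 0.70 ± 0.07 (adjusted p = 9.5e-07) with TAD2m on the log2 scale. For Dusp5 the values were 31.9 and 35.1 CPM with vector, 50.8 and 51.9 CPM with p53WT, 50.7 and 49.6 CPM with TAD2m, 28.3 and 28.3 CPM with TAD1m and 31.7 and 37.7 CPM with TAD12m. Dusp5 rose by 0.62 ± 0.09 (adjusted p = 1.3e-05) with p53WT and by 0.58 ± 0.09 (adjusted p = 2.8e-05) with TAD2m, and TAD1m libraries were the lowest of all groups. The call that Dusp5 was lower with TAD1m than with vector (−0.24 ± 0.09, adjusted p = 0.044) was lost by DESeq2 (adjusted p = 0.13) and without either TAD1m library or the second vector library (adjusted p = 0.14, 0.15 and 0.21).

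Spred1 was the only one of the 10 called lower with p53WT and TAD2m. It stood at 77.2 and 71.6 CPM with vector, 58.7 and 59.6 CPM with p53WT, 56.1 and 60.4 CPM with TAD2m, 61.7 and 66.2 CPM with TAD1m and 76.4 and 67.2 CPM with TAD12m. Vector libraries were above those of p53WT and TAD2m without overlap, and Spred1 fell by 0.33 ± 0.08 (adjusted p = 0.0015) and 0.35 ± 0.08 (adjusted p = 0.001). With TAD1m the change was −0.22 ± 0.07, adjusted p = 0.029, which DESeq2 did not call (adjusted p = 0.09), nor did edgeR without the first TAD1m or first vector library (adjusted p = 0.19 and 0.17). Spry2 stood at 23.1 and 24.3 CPM with vector and 20.004 and 20.2 CPM with TAD1m, and its change of −0.24 ± 0.09, adjusted p = 0.042, was lost by DESeq2 and when any 1 of these 4 libraries was left out (adjusted p = 0.063 to 0.15).

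**Figure D2:**
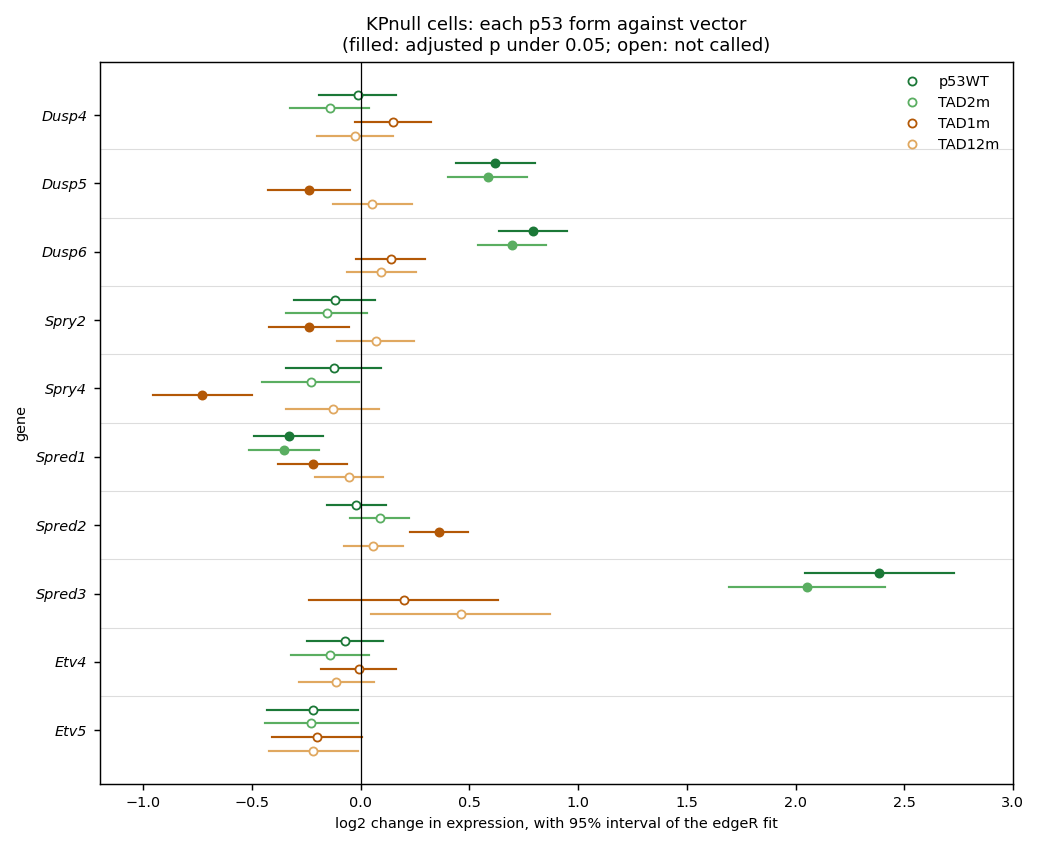
Log2 change of each feedback gene with each p53 form against vector in KPnull cells (horizontal axis), with the 95% interval of the edgeR fit; filled points were called at an adjusted p under 0.05. Spred3, Dusp6 and Dusp5 stand to the right with p53WT and TAD2m, and Spry4 stands to the left with TAD1m.

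TAD1m set Spry4 and Spred2 apart from every other KPnull group. Spry4 stood at 9.89 and 11.3 CPM with TAD1m, below 16.7 and 18.5 CPM with vector, 16.2 and 15.9 CPM with p53WT, 14.4 and 15.5 CPM with TAD2m and 15.8 and 16.3 CPM with TAD12m. It was lower than with vector by log2 −0.73 ± 0.11, adjusted p = 5.7e-05. Against p53WT the log2 difference was −0.60 ± 0.11, adjusted p = 0.00035, against TAD2m −0.50 ± 0.11, adjusted p = 0.0023, and against TAD12m −0.60 ± 0.11, adjusted p = 0.00047. Spred2 stood at 87.6 and 88.5 CPM with TAD1m, above 67.1 and 70.3 CPM with vector, 65.4 and 69.8 CPM with p53WT, 72.8 and 72.9 CPM with TAD2m and 73.6 and 69.3 CPM with TAD12m. Its log2 difference was 0.36 ± 0.06, adjusted p = 0.00029, against vector, 0.38 ± 0.06, adjusted p = 0.00015, against p53WT, 0.27 ± 0.06, adjusted p = 0.0029, against TAD2m and 0.30 ± 0.06, adjusted p = 0.0015, against TAD12m. These 8 calls for Spry4 and Spred2 held under every alternative run, each left-out library included.

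Direct tests between the forms gave the following counts. TAD1m and p53WT differed in 5 of 10 genes, beside 39.1% of genes tested (20.4% higher, 18.7% lower), with Spred3 (−2.19 ± 0.16, adjusted p = 1.9e-08), Dusp5 (−0.86 ± 0.09, adjusted p = 7.9e-07) and Dusp6 (−0.65 ± 0.07, adjusted p = 3.0e-06) lower with TAD1m besides Spred2 and Spry4, given above. TAD12m and p53WT differed in 4 of 10, beside 51.2% (25.5% higher, 25.6% lower), with Spred3 (−1.93 ± 0.15, adjusted p = 2.1e-08), Dusp6 (−0.70 ± 0.07, adjusted p = 8.3e-07) and Dusp5 (−0.57 ± 0.08, adjusted p = 3.1e-05) lower and Spred1 (0.28 ± 0.08, adjusted p = 0.0054) higher with TAD12m. Without the first TAD12m library the call for Spred1 was lost (adjusted p = 0.076). TAD2m and p53WT differed in none of the 10 by edgeR, beside 0.285% (0.199% higher, 0.0862% lower), with 1 of 10 at an unadjusted p under 0.05 and none by DESeq2. For Spred3 the log2 difference between TAD2m and p53WT was −0.33 ± 0.13, adjusted p = 0.77, and its 95% interval ran from −0.61 to −0.05.

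TAD1m and TAD2m differed in 6 of 10 genes, beside 35.5% (18.2% higher, 17.4% lower), with Spred3 (−1.86 ± 0.17, adjusted p = 2.3e-07), Dusp5 (−0.82 ± 0.09, adjusted p = 1.6e-06) and Dusp6 (−0.56 ± 0.07, adjusted p = 1.9e-05) lower with TAD1m and Dusp4 (0.29 ± 0.08, adjusted p = 0.012) higher, again besides Spred2 and Spry4. Dusp4 lost that call without the second TAD1m library (adjusted p = 0.12) and without either TAD2m library (adjusted p = 0.085 and 0.065). TAD2m and TAD12m differed in 5 of 10, beside 48.5% (24.8% higher, 23.7% lower), with Dusp5 (0.53 ± 0.08, adjusted p = 7.0e-05) and Dusp6 (0.60 ± 0.07, adjusted p = 4.8e-06) higher and Spred1 (−0.30 ± 0.08, adjusted p = 0.0035) lower with TAD2m besides Spred3. The fifth, Spry2 (−0.23 ± 0.09, adjusted p = 0.043), lost its call when any 1 of the 4 libraries was left out (adjusted p = 0.063 to 0.26). That call was also lost by DESeq2 (adjusted p = 0.23). In edgeR it was lost with RLE size factors, no filter on low counts or a replicate block (adjusted p = 0.058, 0.14 and 0.051). Without the first TAD2m library Spred1 lost its call too (adjusted p = 0.061), which left 3. TAD1m and TAD12m differed in 4 of 10, beside 31% (16.8% higher, 14.2% lower): Spred2 and Spry4, given above, and Dusp5 (−0.29 ± 0.09, adjusted p = 0.018) and Spry2 (−0.31 ± 0.09, adjusted p = 0.012), both lower with TAD1m. Without either TAD1m library only Spred2 and Spry4 were called. Without the second TAD12m library Dusp5 was not called (adjusted p = 0.19), and without the first one Spry2 was not (adjusted p = 0.055).

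Among the other genes in KPnull cells, group means were 28.1 to 31.1 CPM for Etv4 and 22.0 to 25.6 CPM for Etv5, and neither was called in any of the 10 comparisons among KPnull groups by the fit without a replicate block. With a block that crosses the numbers of p53WT and TAD2m, chosen after seeing the data, Etv5 passed in p53WT and TAD2m against vector (adjusted p = 0.034 and 0.033). In both, vector had the highest mean. Dusp4 means were 67.4 to 82.6 CPM and Spry2 means 20.1 to 24.8 CPM, with no neighbours in the order of the 5 group means called for either gene. Their calls between groups farther apart in that order, 1 for Dusp4 and 3 for Spry2, are given above and each was lost without at least 1 library.

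Next, p53 was restored for 6 days in the sgPcyt2 cells, with and without the Pcyt2 cDNA. In both, Dusp6 and Spred3 rose and Dusp5, Etv4 and Etv5 fell on withdrawal of doxycycline. Without the cDNA 8 of 10 were called, 4 higher and 4 lower, beside 76.3% of 14916 genes tested (39.2% higher, 37.1% lower). With the cDNA 8 of 10 were called, 3 higher and 5 lower, beside 73.5% (37.3% higher, 36.3% lower). Both shares are close to the background. The median log2 change of the 10 was −0.06 without and −0.11 with the cDNA, against 0.02 over all genes in each.

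Dusp6 stood at 636 and 649 CPM on doxycycline and 838 and 863 CPM off it without the cDNA, and at 379 and 389.9 CPM on and 697 and 693 CPM off with it. In both pairs the libraries off the drug were the higher ones. Dusp6 rose by 0.40 ± 0.04 (adjusted p = 2.0e-13) without and 0.85 ± 0.04 (adjusted p = 1.3e-24) with the cDNA. Dusp5 stood at 165 and 159 CPM on and 63.6 and 72.8 CPM off without the cDNA, and at 110.3 and 116 CPM on and 91.2 and 91.7 CPM off with it. Dusp5 thus fell by 1.25 ± 0.05 (adjusted p = 1.6e-25) and 0.31 ± 0.05 (adjusted p = 1.3e-06), opposite in sign to KPsh cells at 10 days, where it rose. Gm50394, on the strand opposite Dusp5, was at 11.2 and 9.79 CPM on and 5.47 and 5.44 CPM off doxycycline without the cDNA, a small fraction of Dusp5. Dusp4 stood at 50.2 and 55.7 CPM on and 68.9 and 64.3 CPM off without the cDNA, a rise of 0.33 ± 0.06 (adjusted p = 8.1e-06). With the cDNA it stood at 44 and 46 CPM on and 41.8 and 39.1 CPM off, and that change of −0.16 ± 0.07, adjusted p = 0.04, was not called by DESeq2 (adjusted p = 0.19) or without the second library of either group (adjusted p = 0.33 and 0.21).

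Spry2 stood at 65.3 and 61.9 CPM on and 40.6 and 38.8 CPM off doxycycline without the cDNA and fell by 0.68 ± 0.06 (adjusted p = 3.2e-13). With the cDNA it stood at 48.3 and 47.6 CPM on and 46.2 and 45.2 CPM off, a difference that did not pass the test (adjusted p = 0.35). Spry4 was at 68.8 and 71.1 CPM on and 79 and 74.2 CPM off without the cDNA and at 41.6 and 41.1 CPM on and 41.8 and 41.3 CPM off with it. Its call without the cDNA (0.13 ± 0.06, adjusted p = 0.034) was lost by DESeq2 (adjusted p = 0.23) and without the first library off or either library on the drug (adjusted p = 0.31, 0.19 and 0.052), and with the cDNA it was not called (adjusted p = 0.92). The clear split in Spry4 was therefore between cells without and with the cDNA, on and off the drug alike.

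Spred3 stood at 13.8 and 16.4 CPM on and 20.4 and 21.9 CPM off doxycycline without the cDNA, and at 12.3 and 11 CPM on and 32.4 and 30.4 CPM off with it. It rose by 0.49 ± 0.10 (adjusted p = 5.2e-05) without and 1.43 ± 0.10 (adjusted p = 3.5e-17) with the cDNA, and the libraries were apart in both. Spred2, at 81.7 and 80.5 CPM on and 97.7 and 97.2 CPM off with the cDNA, rose by 0.27 ± 0.05 (adjusted p = 1.3e-05). Spred1, at 89.2 and 90.9 CPM on and 74 and 83 CPM off with the cDNA, changed by −0.20 ± 0.06, adjusted p = 0.0014, a call lost without the first library off the drug (adjusted p = 0.14). Without the cDNA neither Spred1 nor Spred2 was called, and their libraries overlapped.

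Both ETS genes were lower off doxycycline. Etv4 stood at 86.2 and 79 CPM on and 38.9 and 35.5 CPM off without the cDNA, and at 74.2 and 71.1 CPM on and 38.1 and 40.6 CPM off with it. It fell by 1.15 ± 0.06 (adjusted p = 7.3e-21) and 0.88 ± 0.06 (adjusted p = 1.0e-16), with wide gaps between the libraries. Etv5 stood at 57.8 and 55.7 CPM on and 49.995 and 48.5 CPM off without the cDNA, and at 50.7 and 53.8 CPM on and 34.9 and 32.8 CPM off with it. Its falls were 0.20 ± 0.06 (adjusted p = 0.0036) and 0.63 ± 0.07 (adjusted p = 1.7e-11).

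**Figure D3:**
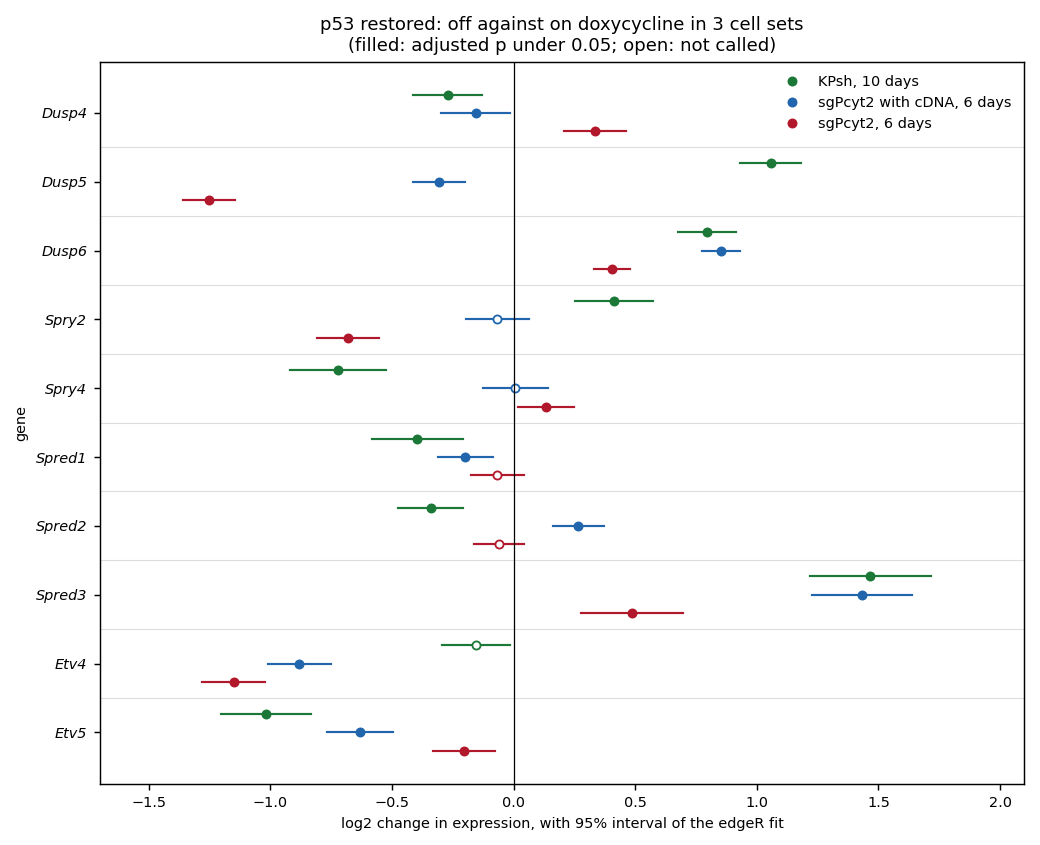
Log2 change of each feedback gene off against on doxycycline (horizontal axis) in KPsh cells at 10 days and in sgPcyt2 cells with and without the Pcyt2 cDNA at 6 days, with the 95% interval of the edgeR fit; filled points were called. Spred3 and Dusp6 lie to the right in all 3 sets, while Dusp5 lies to the right in KPsh cells and to the left in both sets of sgPcyt2 cells.

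The difference between the responses without and with the cDNA was tested as an interaction. It was called for 8 of 10 genes, beside 25.2% of genes tested (12.8% above 0, 12.4% below), with 2 above and 6 below 0. The response without the cDNA was lower than with it for Dusp5 (log2 difference −0.94 ± 0.07, adjusted p = 3.8e-14), Spred3 (−0.94 ± 0.15, adjusted p = 1.7e-06), Spry2 (−0.61 ± 0.09, adjusted p = 5.9e-07), Dusp6 (−0.45 ± 0.05, adjusted p = 3.8e-09) and Spred2 (−0.33 ± 0.07, adjusted p = 0.00057). It was higher for Dusp4 (0.49 ± 0.09, adjusted p = 6.0e-05) and Etv5 (0.43 ± 0.09, adjusted p = 0.00037). For Etv4 the difference of −0.27 ± 0.09, adjusted p = 0.026, was lost by DESeq2 (adjusted p = 0.15), and by edgeR without the second library of either group with the cDNA, the second without it off the drug or the first without it on the drug (adjusted p = 0.078 to 0.15). The median over the 10 was −0.30, against 0.02 over all genes. Off doxycycline Trp53 stood at 42.1 and 41.7 CPM without and 97.2 and 86.8 CPM with the cDNA, and Cdkn1a, a p53 target that encodes p21, at 291 and 302 CPM without and 383 and 392 CPM with it. The part of these unequal p53 levels in the interaction was not tested.

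On doxycycline, with p53 silenced, 8 of the 10 feedback genes were higher in sgPcyt2 cells without the cDNA than with it, and none was lower. The 8 stand beside 18.4% of genes called in either direction and 8.4% called higher (10% were called lower). The median log2 difference of the 10 was 0.30, against −0.02 over all genes. From the on-drug values given above, the log2 difference was 0.76 ± 0.06, adjusted p = 1.4e-13, for Spry4, 0.74 ± 0.04, adjusted p = 2.1e-20, for Dusp6, 0.52 ± 0.05, adjusted p = 1.6e-11, for Dusp5 and 0.41 ± 0.06, adjusted p = 1.2e-06, for Spry2. Those 4 and Spred2 (0.22 ± 0.05, adjusted p = 0.0015) were the 5 that DESeq2 called. Dusp4 (0.23 ± 0.07, adjusted p = 0.011), Spred3 (0.37 ± 0.12, adjusted p = 0.017) and Etv4 (0.19 ± 0.06, adjusted p = 0.017) were not (adjusted p = 0.093, 0.12 and 0.16). Without the second library of sgPcyt2 cells on doxycycline, 5 were called: Dusp4, Spred2 and Spred3 dropped out (adjusted p = 0.23, 0.068 and 0.27). Dusp4 also dropped out without the first library with the cDNA (adjusted p = 0.11), and Spred3 and Etv4 without the second (adjusted p = 0.24 and 0.22). Etv4 did so too without the first library lacking the cDNA (adjusted p = 0.29). Etv5 and Spred1, at 95.4 and 97.8 CPM without and 89.2 and 90.9 CPM with the cDNA, did not pass (adjusted p = 0.21 and 0.22).

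Off doxycycline the same 2 kinds of cells differed in both directions. Of 10 genes, 8 were called, 5 higher and 3 lower without the cDNA, beside 33.1% of genes tested (16.3% higher, 16.8% lower). Spry4 (0.88 ± 0.06, adjusted p = 2.4e-16), Dusp4 (0.72 ± 0.07, adjusted p = 1.7e-12), Etv5 (0.54 ± 0.07, adjusted p = 1.1e-08), Dusp6 (0.29 ± 0.04, adjusted p = 1.5e-08) and Spred1 (0.23 ± 0.06, adjusted p = 0.00084) were higher. Spred3 (−0.57 ± 0.09, adjusted p = 2.1e-06), Dusp5 (−0.42 ± 0.06, adjusted p = 3.2e-08) and Spry2 (−0.20 ± 0.07, adjusted p = 0.015) were lower. The call for Spred1 was lost without the first library with the cDNA (adjusted p = 0.10), and that for Spry2 by DESeq2 (adjusted p = 0.12) and without the first library with or the second without the cDNA (adjusted p = 0.088 and 0.081). Spry4, Dusp6 and Dusp4 were thus called higher without the cDNA both on and off the drug, while Dusp5, Spry2 and Spred3 were called higher on it and lower off it. DESeq2 did not call Dusp4 or Spred3 on the drug or Spry2 off it.

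Other genes of the pathway were followed in lists of feedback relatives, output genes and the RAS and kinase cascade. In KPsh cells off doxycycline 64.8% of all genes tested were called, 33.1% higher and 31.7% lower, and the counts below stand beside these shares. Of 10 tested feedback relatives (of 13 listed), 7 were called higher and 1 lower. Dusp1, a nuclear MAP kinase phosphatase, rose by 3.10 ± 0.13 (adjusted p = 1.1e-14) and Dusp10, which acts on JNK and p38, by 1.51 ± 0.09 (adjusted p = 1.4e-12), while Spry1 fell by 1.58 ± 0.12 (adjusted p = 1.1e-10). Of 10 output genes 8 were higher and none lower, among them Ccnd1 (cyclin D1, 1.38 ± 0.05, adjusted p = 7.1e-16) and Ier3 (1.03 ± 0.07, adjusted p = 1.7e-11). Of 18 cascade genes 4 were higher and 6 lower, with Mapk3, which encodes ERK1, up by 1.28 ± 0.07 (adjusted p = 2.2e-13) and Nf1, which encodes neurofibromin, down by 0.78 ± 0.07 (adjusted p = 3.0e-09). The median log2 change was 0.55 for the relatives, 0.45 for the outputs and −0.04 for the cascade, against 0.01 over all genes. Exons of a gene on the opposite strand share 62.4% of the exon bases of Fosl1, 29.4% of Ccnd1, 12.5% of Cdkn1a and 11.5% of Spry1. Reads of those stretches cannot be told apart, and how far they affect the counts of these genes was not measured.

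In KPnull cells, again against the shared vector libraries, the counts of feedback relatives called followed the order of the shares over all genes given above (50.6% with p53WT, 49.1% with TAD2m, 36.4% with TAD1m and 3.85% with TAD12m). Of 10 tested, 8 were higher with p53WT, 7 with TAD2m, 3 with TAD1m and 1 with TAD12m, and none was lower except 1 with TAD1m. Dusp1 was 5.58-fold higher with p53WT (log2 2.48 ± 0.09, adjusted p = 1.8e-12) and 5.04-fold higher with TAD2m (log2 2.33 ± 0.09, adjusted p = 4.8e-12). With TAD1m its log2 change was 0.39 ± 0.10, adjusted p = 0.0062. Outputs were higher in 7 of 10 with p53WT and 7 of 10 with TAD2m, with no output lower in either. Ier3 rose by 1.16 ± 0.08 (adjusted p = 4.5e-09) with p53WT and 1.15 ± 0.08 (adjusted p = 5.4e-09) with TAD2m. Cascade genes were 4 higher and 7 lower of 18 with p53WT, with Mapk3 up by 0.31 ± 0.06 (adjusted p = 0.00034).

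In sgPcyt2 cells without the cDNA 5 of 10 outputs were called lower and 2 higher off doxycycline, a total near the 76.3% of all genes. Fosl1, an AP-1 subunit, fell by 1.92 ± 0.06 (adjusted p = 5.1e-32), Egr1, an immediate early transcription factor, by 1.68 ± 0.08 (adjusted p = 7.2e-24) and Ier3 by 1.08 ± 0.07 (adjusted p = 3.0e-18). With the cDNA 5 were higher and 4 lower, beside 73.5% of all genes, with Fosl1 down by 1.12 ± 0.05 (adjusted p = 1.3e-23) and Ccnd1 up by 0.76 ± 0.04 (adjusted p = 1.2e-21). On doxycycline 7 of 10 outputs and 5 of 11 tested relatives were higher without the cDNA than with it, and none of either list was lower, beside 8.4% of all genes called higher. Among called genes of at least 5 CPM, Egr1 had a log2 difference of 1.47 ± 0.08, adjusted p = 2.1e-20, and Errfi1, a feedback inhibitor of the EGF receptor, one of 0.78 ± 0.04, adjusted p = 9.7e-21. The interaction was below 0 for 7 of 10 outputs, with none above, and for 6 of 11 relatives, with 1 above, beside 12.4% of all genes below 0 and 12.8% above. Its median was −0.51 over the outputs and −0.68 over the relatives, against 0.02 over all genes. Of 18 cascade genes 5 were called, 2 above and 3 below 0.

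**Figure D4:**
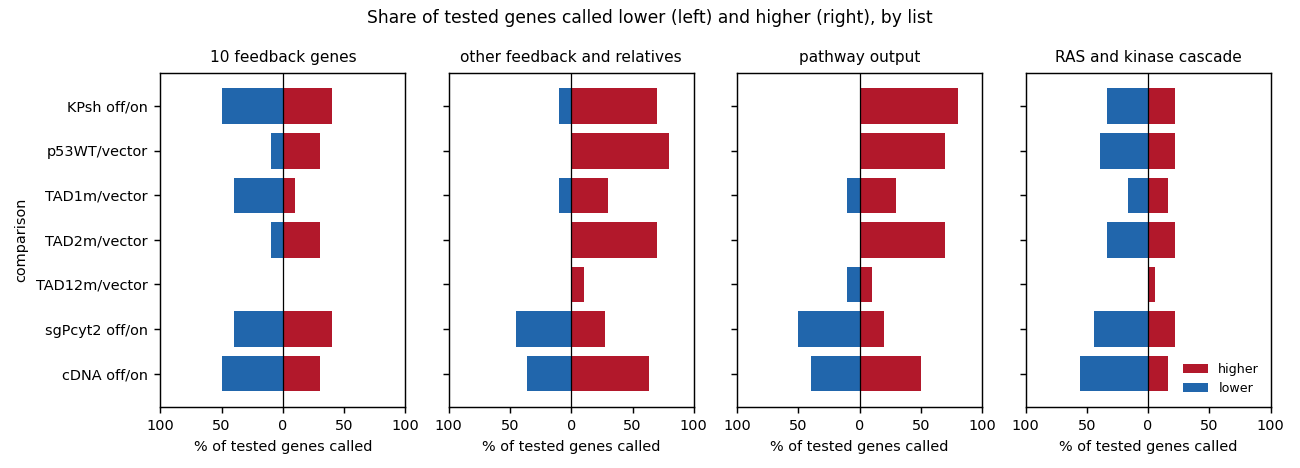
Percentage of tested genes called lower (left of 0) and higher (right of 0) in each of 7 comparisons, for the 10 feedback genes, their relatives (10 or 11 tested), 10 output genes and 18 cascade genes. With p53 restored in KPsh cells the outputs had 8 higher and none lower, and the 10 feedback genes had 4 higher and 5 lower. Over all genes tested in that comparison, 33.1% were called higher and 31.7% lower.

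The genes whose levels most resembled each member over the 10 KPnull libraries were found by Pearson's r of log2(CPM + 1) among 10729 genes of at least 5 CPM. The libraries fall into 5 groups, so a high r mainly records the same order of groups, and no p is given. Spred3 was most like Igfbp3 (r = 0.995), H2bc4 (0.990) and Chka (0.989). Dusp6 was most like Atp6v0b (0.996), Pmepa1 (0.991) and Lrp10 (0.991), and Dusp5 was most like Dhh (0.989), Hid1 (0.989) and Sdcbp2 (0.987). Spry4, low with TAD1m, was most like Lad1 (0.967), Tmem9 (0.960) and Inpp5a (0.951). For Spred2 the nearest were Sbsn (0.972), Iqgap1 (0.971) and Dip2b (0.970), and for Etv4, which barely varied, the nearest gene reached 0.867 (Dhx30).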

How the data were processed

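RNA from 24 libraries of cultured cells was measured after poly(A) selection with a stranded kit, per the labels' protocols. The authors deposited expected counts per gene in steps of 0.5, without normalization. The submitters' processing notes name STAR 2.6.1c, HOMER and the build mm10. HOMER counted exons of 1 transcript per gene (GENCODE vM25) on both strands, per the file headers. Columns were matched to samples by name. The KPsh columns off doxycycline and the columns with the Pcyt2 cDNA were matched by elimination. The series text allows KPnull cells without doxycycline, but the growth protocol gives it to all.

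Counts were rounded to whole numbers, with 0.5 rounded up, which changed totals by at most 0.0533%. Genes were kept by filterByExpr, leaving 13990, 15075 and 14916 in the KPsh, KPnull and sgPcyt2 tables. Libraries were scaled with TMM (factors 0.979 to 1.021). Each table was fitted alone with edgeR 4.0.16 (quasi-likelihood, robust, group means, limma 3.58.1, R 4.3.3), with 4, 5 and 4 residual degrees of freedom. Benjamini-Hochberg adjustment ran over the whole set of genes in a comparison, and an adjusted p under 0.05 made a call. CPM use the TMM-adjusted total. The fit was tested on simulated data with 50 genes changed at each size, for KPsh cells, p53WT against vector and sgPcyt2 cells without the cDNA. Of genes changed by log2 0.25 it recovered 20%, 28% and 18%, and of those changed by 0.5 it recovered 64% in each. False calls numbered 4, 7 and 18. All other genes were simulated without change, and every gene had the same spread. In the real comparisons 64.8%, 50.6% and 76.3% of genes were called, so these rates need not hold for the real fits. Replicate pairs differed beyond sampling noise (chi-square per degree of freedom 1.74 to 7.49).

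The members and lists were chosen with earlier results of these data known. The rule for named genes takes all 10 members, Trp53, Cdkn1a and Mdm2, and up to 3 called genes of each list per comparison with the largest absolute log2 change and a mean of at least 5 CPM. Gm50394 and Pcyt2 stand outside it, and Gm50394 was added after its overlap was seen. Some genes of the lists are counted but not reported here by name. Alternatives were RLE size factors, DESeq2 1.42.0, no low-count filter, a replicate block and leaving out each library.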

Additional observations from a re-analysis of the deposited data

Results flagged for a closer look

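Withdrawing doxycycline moved 8 of the 10 feedback genes differently in sgPcyt2 cells without and with the Pcyt2 cDNA, by the interaction term of edgeR's quasi-likelihood test, which called 25.2% of all genes. The difference of the log2 changes, without minus with the cDNA, was 0.49 for Dusp4, −0.94 for Dusp5, −0.45 for Dusp6, −0.27 for Etv4, 0.43 for Etv5, −0.33 for Spred2, −0.94 for Spred3 and −0.61 for Spry2. DESeq2 did not call Etv4 (adjusted p = 0.15), which leaves 7, and edgeR lost it in 4 of the fits with 1 library left out.

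Some genes moved one way in every KPsh library after 10 days off doxycycline and the opposite way in every library of the sgPcyt2 cells without the cDNA, or of those with it, after 6 days. Dusp5 and Spry2 did so in both. How many of all genes did the same was not counted. Of all genes tested, 64.8% were called in KPsh cells, and 76.3% without and 73.5% with the cDNA in sgPcyt2 cells. Differences between these sets were not tested, because the sets were counted and scaled in separate tables, and the days differ. Trp53 off doxycycline was also unequal, highest in KPsh cells and lowest in sgPcyt2 cells without the cDNA, and its part was not tested. Without the cDNA the opposite log2 changes were 0.33 for Dusp4, −1.25 for Dusp5, −0.68 for Spry2 and 0.13 for Spry4. With the cDNA they were −0.31 for Dusp5, −0.07 for Spry2 and 0.27 for Spred2. Of these, the change of Spry2 with the cDNA did not pass its own test. The call of Spry4 without the cDNA was lost by DESeq2 (adjusted p = 0.23) and by edgeR with no filter on low counts (adjusted p = 0.071).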

How the results depend on the processing

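Of 160 values of the 10 feedback genes (10 genes in 16 comparisons), 86 were called. Of these, 67 kept the call under every alternative run, 19 lost it under at least 1, and none changed sign. The number of the 10 called in TAD1m against vector was 5, and became 2 with DESeq2, 3 with no filter and 2 to 4 with 1 library left out (2 without the first TAD1m library). In TAD1m against TAD12m it was 4, became 2 with DESeq2 and ran from 2 to 5 with 1 left out (2 without either TAD1m library). In TAD2m against TAD12m it was 5 and ran from 3 to 4 with 1 left out (3 without the first TAD2m library). In sgPcyt2 cells without against with the cDNA on doxycycline it was 8, became 5 with DESeq2 and ran from 5 to 7 with 1 left out (5 without the second library lacking the cDNA).

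With the replicate number as a block, the counts of feedback genes called were 9 in KPsh cells, 4 in TAD1m against vector, 4 in TAD2m against TAD12m and 7 in sgPcyt2 cells with the cDNA off against on doxycycline. The numbers did not pair the libraries of all groups: deviations of same-numbered libraries correlated from −0.126 to −0.0996 in the KPsh table, −0.204 to 0.354 in the KPnull table and −0.0696 to 0.0109 in the sgPcyt2 table. Among KPnull groups, vector and TAD12m correlated at 0.354 and TAD2m and p53WT at 0.106. Between these pairs the values were −0.204 to −0.151. Whether the KPnull libraries share a batch was not tested. Crossing the numbers of p53WT and TAD2m, a choice made after seeing the data, added 7 calls and removed none: Etv5 with p53WT and with TAD2m against vector (adjusted p = 0.034 and 0.033), Dusp4 with TAD1m against vector, p53WT and TAD12m, Dusp6 with TAD1m against vector and Spred1 with TAD1m against TAD12m. Over all genes, TAD2m against p53WT had 43 calls, 107 with no filter, 113 with the crossed block and 13 to 23 with 1 library left out. DESeq2 called 2236 against 3759 genes in the interaction, 2862 against 4944 for the cDNA off doxycycline and 1433 against 2746 for it on doxycycline. Depth limits Spred3 most, at about 2 CPM with vector.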
